A study of Homo sapiens with 32 samples.

Results

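The response to thapsigargin (TG) was examined in LNCaP cells carrying a control siRNA (siCTRL), by comparing the 4 siCTRL libraries that received TG with the 4 that did not. These are 8 of the 32 libraries of the series. The comparison covered every gene that passed a count filter, 13238 of the 29744 genes in the deposited table. LNCaP is an established human prostate cancer line that responds to androgen. The cells were grown in RPMI medium with fetal bovine serum, and both groups carried siCTRL, so an effect of transfection itself is shared by them. The series describes the cells without TG as vehicle controls and the replicates as biological. Dose, duration and vehicle were not stated in the labels used here. The libraries, strand-specific and made from polyadenylated RNA, came from 8 groups of 4, formed by line (LNCaP or its castration-resistant derivative C4-2B), by siRNA (siCTRL or siMOCOS, against MOCOS) and by TG or none. The 8 siCTRL libraries of C4-2B served to ask where the LNCaP response differed.

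TG blocks the SERCA pumps that move calcium from the cytosol into the endoplasmic reticulum (ER). The emptied ER folds proteins poorly, and 3 sensors in its membrane answer: IRE1 (gene ERN1), which splices the XBP1 transcript, ATF6, which is cut to release a transcription factor, and PERK (gene EIF2AK3), which slows translation while favouring that of ATF4. Together they form the unfolded protein response, which raises chaperones, the degradation of misfolded proteins and the secretory machinery. When stress persists, ATF4 and its target CHOP (gene DDIT3) also drive genes of amino acid supply and of cell death. Prostate luminal cells are secretory, and kallikreins and other secreted proteins under androgen control pass through this compartment.

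The 8 libraries held 11681393 to 20251598 counts each, and levels are given as CPM, counts scaled to one common library size. Libraries of the same group correlated at 0.9752 or more over genes (log2 CPM), and pairs from different groups at 0.9181 to 0.9423. TG libraries 2 and 4 leaned in opposite directions on gene length and GC content: the correlation of a gene's deviation with its GC content was 0.444 in TG library 2 and -0.285 in TG library 4. Of 14 markers of luminal prostate cells, all 14 were at 1 CPM or more in both groups. The basal keratin KRT5 and KRT15, the mesenchymal CDH2 and ZEB2, and the neuroendocrine CHGA and INSM1 were at or near 0 CPM in all 8 libraries. Other members of these lists were not: the 12 neuroendocrine markers summed to 256 to 298 CPM in controls and 123 to 139 CPM with TG, nearly all of it SYT4 (means 258 and 121 CPM), and the 13 basal and mesenchymal markers to 454 to 510 and 364 to 527 CPM. TP63, the basal transcription factor, was at 0 in every control and at a mean of 0.54 CPM with TG, too low to test. Of 13 markers of immune, stromal and blood vessel cells, 6 were at 0 in every library of each group, and their summed level was 6.33 to 8.18 CPM in controls and 12.6 to 16.1 CPM with TG. In bulk libraries such as these, fewer cells of a kind and less RNA per cell cannot be told apart.

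At an adjusted p under 0.05 in edgeR's quasi-likelihood test, TG raised 3951 genes (29.8% of those tested) and lowered 3476 (26.3%). With a change of at least 2-fold required as well, 1337 genes rose (10.1%) and 821 fell (6.2%), and the median log2 change of all genes was 0.01. All 4 TG libraries lay above all 4 controls for 3600 genes (27.2%) and below them for 3071 (23.2%). Counts within the gene lists below stand against these shares. When the test asked for a change beyond 1.5-fold, 1579 genes rose and 1049 fell.

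Among genes that reached at least 5 CPM, the greatest rise was that of FAM225B, a long noncoding RNA at chr9:113104723-113111677 (GRCh38.p14). It was at 0 CPM in every control library and at 4.26, 5.04, 7.01 and 6.94 CPM with TG, at least 121-fold higher against a floor of 3 counts over the 4 controls. It has a near-identical neighbour, FAM225A, so the assignment of reads between the copies is uncertain. KRT80, a keratin of stratified epithelia, was at 0.204, 0.165, 0.556 and 0.169 CPM in controls and at 31.8, 38.9, 35.7 and 26.4 CPM with TG. That is a rise of 6.96 ± 0.259 (log2, SE; adjusted p = 1.85e-10), from near the limit of detection to a level clear of it in each TG library.

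The other 8 of the 10 greatest rises were KIAA1239 (now NWD2), TNFRSF9, TNFSF18, LINC00346, FAM167A, GPR1 (now CMKLR2), CREB5 and DNAH3. TNFRSF9 and TNFSF18 encode a receptor (4-1BB) and a ligand (GITRL) of the tumour necrosis factor superfamily, best known from T cell costimulation. TNFSF18 was at 0.153, 0, 0 and 0.0844 CPM in controls and at 6.27, 5.37, 7.6 and 7.44 CPM with TG, a log2 rise of 6.54 ± 0.45. CREB5, a transcription factor of the ATF/CREB family, went from 0.816, 1.16, 1.43 and 0.337 CPM to 49.9, 37.9, 39.6 and 46.7 CPM, a log2 rise of 5.51 ± 0.223. Each of these genes was below 2 CPM in every control library and well above that in every TG library, so their fold changes rest on small control counts.

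The greatest falls were led by OR51E1, a prostate-enriched odorant receptor gene, at 44.8, 40.6, 41.8 and 60.7 CPM in controls and 2.59, 2.69, 2.4 and 2.85 CPM with TG. Its log2 change was -4.15 ± 0.158 (adjusted p = 2.19e-10), and the groups lay far apart. They also included the Wnt ligand WNT7B (-3.55), the apelin peptide gene APLN (-3.10), the defensin gene DEFB132 (-3.77), the Notch feedback gene NRARP (-3.05), the transcription factor TFAP4 (-3.02), LOC100508046, PCAT1 and HMGN2P46. APLN was at 17, 19.1, 20.8 and 20.8 CPM in controls and 2.51, 3.4, 1.75 and 1.45 CPM with TG.

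All 3 ER stress sensors rose at the transcript level. ERN1 rose most, from 35.5, 38, 40 and 32.6 CPM to 176, 176, 188 and 259 CPM (log2 2.45 ± 0.129, adjusted p = 3.58e-09). EIF2AK3 went from 71.3, 65.9, 65.6 and 67.7 CPM to 143, 134, 153 and 173 CPM, and ATF6 from 78.9, 77.4, 73.4 and 75.6 CPM to 147, 140, 152 and 165 CPM. These are log2 rises of 1.16 ± 0.0898 and 0.98 ± 0.0781, and no TG library overlapped a control for any of the 3 genes. XBP1, whose splicing the table does not show, rose by 1.34 ± 0.0811, and ATF4, which is controlled mainly at translation, by 0.75 ± 0.104. PPP1R15A (GADD34), which brings a phosphatase to eIF2α and so restores translation, went from 9.64, 9.57, 10.1 and 9.11 CPM to 40.4, 38.3, 40.4 and 39.6 CPM. Of the 17 sensors and transducers tested, 9 were higher and 2 lower, with a median log2 change of 0.75. Those lower were EIF2AK1 (-0.40) and EIF2AK4 (-0.63), the eIF2α kinases that sense haem and amino acid shortage. EIF2AK1 was not called in a fit of all 16 LNCaP libraries (log2 -0.46, adjusted p = 0.276). That fit adds the siMOCOS libraries, whose spread then enters the test.

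Promoters of 3 responders and 1 faller from the folding machinery are shown because they hold sequence elements known from these responses, and CHAC1 because it is among the strongest ATF4 and CHOP targets. Each line gives the 250 bases before a RefSeq start of the gene (GRCh38.p14), 5′ to 3′ on the strand of the gene, with motif matches in capitals. For HSPA8 these bases lie inside the RefSeq span of the gene (chr11:123057489-123062462), not before its outermost start. They are HSPA5 (chr9:125241344-125241593, minus strand), HSP90B1 (chr12:103930160-103930409, plus), HERPUD1 (chr16:56931892-56932141, plus), CHAC1 (chr15:40953221-40953470, plus) and HSPA8 (chr11:123062137-123062386, minus).
HSPA5: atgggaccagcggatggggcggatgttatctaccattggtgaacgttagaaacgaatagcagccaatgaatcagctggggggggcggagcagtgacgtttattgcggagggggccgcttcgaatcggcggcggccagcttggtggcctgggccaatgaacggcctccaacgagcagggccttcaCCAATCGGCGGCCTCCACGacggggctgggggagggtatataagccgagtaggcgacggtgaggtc
HSP90B1: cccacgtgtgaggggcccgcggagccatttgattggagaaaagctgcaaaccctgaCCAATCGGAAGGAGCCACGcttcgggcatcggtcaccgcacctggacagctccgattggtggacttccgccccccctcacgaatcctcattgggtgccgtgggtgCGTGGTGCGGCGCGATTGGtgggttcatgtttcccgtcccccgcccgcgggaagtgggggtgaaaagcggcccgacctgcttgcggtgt
HERPUD1: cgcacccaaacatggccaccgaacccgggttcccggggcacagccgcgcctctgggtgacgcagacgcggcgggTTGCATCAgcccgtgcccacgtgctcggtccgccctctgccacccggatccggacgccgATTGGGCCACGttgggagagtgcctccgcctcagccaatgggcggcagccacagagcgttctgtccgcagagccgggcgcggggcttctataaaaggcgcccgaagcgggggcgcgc
CHAC1: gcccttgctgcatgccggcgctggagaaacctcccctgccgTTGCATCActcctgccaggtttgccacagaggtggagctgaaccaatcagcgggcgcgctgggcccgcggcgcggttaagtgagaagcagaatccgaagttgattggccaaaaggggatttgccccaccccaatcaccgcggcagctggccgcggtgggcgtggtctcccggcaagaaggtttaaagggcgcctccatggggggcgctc
HSPA8: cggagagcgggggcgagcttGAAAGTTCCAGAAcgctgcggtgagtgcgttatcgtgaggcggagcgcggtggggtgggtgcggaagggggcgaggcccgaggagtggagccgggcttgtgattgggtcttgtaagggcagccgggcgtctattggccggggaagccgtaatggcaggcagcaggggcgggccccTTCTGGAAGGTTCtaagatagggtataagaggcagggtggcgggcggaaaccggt
The capitals mark the ER stress element (CCAAT, 9 bases, CCACG) once in HSPA5 and 2 times in HSP90B1. In HERPUD1 they mark the second ER stress element (ATTGG, 1 base, CCACG) and TTGCATCA, a composite site of ATF4 and C/EBP proteins. CHAC1 holds the composite site as well. HSPA8 holds 2 heat shock elements (GAA, 2 bases, TTC, 2 bases, GAA).

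Both strands were searched, from 250 bases before to 50 after a start of each of 27305 genes in the RefSeq table. ATTGG is the reverse complement of CCAAT, so the 2 ER stress elements share part of their letters but differ in spacing. The first ER stress element was found in 22 of the 27305 promoters (0.0806%), and 5 of those 22 were among 21 ER chaperone genes tested with a promoter: HSPA5, HSP90B1, CALR, CANX and CRELD2. Of these 5, HSPA5, HSP90B1 and CRELD2 rose, while CALR (log2 0.19, adjusted p = 0.102) and CANX (0.23, adjusted p = 0.0571) did not pass the test. CALR passed it without control library 2 (adjusted p = 0.0477), and CANX without control library 1 (0.0374) or TG library 2 (0.0227). The second element was in 15 promoters (0.0549%), of which HERPUD1 was the only ER-associated degradation gene. The composite site was in 252 promoters (0.923%) and the heat shock element in 133 (0.487%). Of 18 ATF4 and CHOP effectors tested with a promoter 2 held the composite site, CHAC1 and FGF21. Of 20 cytosolic heat shock genes 4 held the heat shock element: HSPA8, DNAJA1 and DNAJB6, called lower, and CHORDC1, called higher. DNAJB6 was not called in the fit of all 16 LNCaP libraries (adjusted p = 0.117), nor CHORDC1 with length and GC content adjusted for (0.342). A match describes letters in this window and is no evidence of binding. Since 77.4% of the genes tested had a promoter in the table, called and uncalled genes were not compared for motifs.

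Chaperones of the ER lumen rose widely. HSPA5 (BiP, chr9:125234853-125241343), the main ER chaperone, was at 2641, 2347, 2265 and 2366 CPM in controls and at 6703, 7069, 7999 and 7620 CPM with TG. The log2 rise of 1.61 ± 0.0901 (adjusted p = 6.08e-09) was gained by each TG library, with no overlap. HSPA13, a microsomal member of the same family, went further, from 104, 91.7, 93.1 and 92 CPM to 385, 346, 452 and 491 CPM (2.14 ± 0.11). HYOU1, the nucleotide exchange partner of BiP, rose from 1028 ± 51.5 to 2496 ± 191 CPM (SD, n = 4), and HSP90B1 (GRP94) only from 3039 ± 207 to 4779 ± 455 CPM. Of the 24 ER chaperones tested 15 rose and 2 fell, with a median of 0.80, and their summed mean level went from 13763 to 24430 CPM. FKBP9 (-0.28) and FKBP10 (-0.35), prolyl isomerases that act on collagens, were the 2 that fell. FKBP9 had no call without TG libraries 2 and 4 (adjusted p = 0.0842) or in the fit of all 16 LNCaP libraries (log2 -0.34, adjusted p = 0.107).

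**Figure D1:**
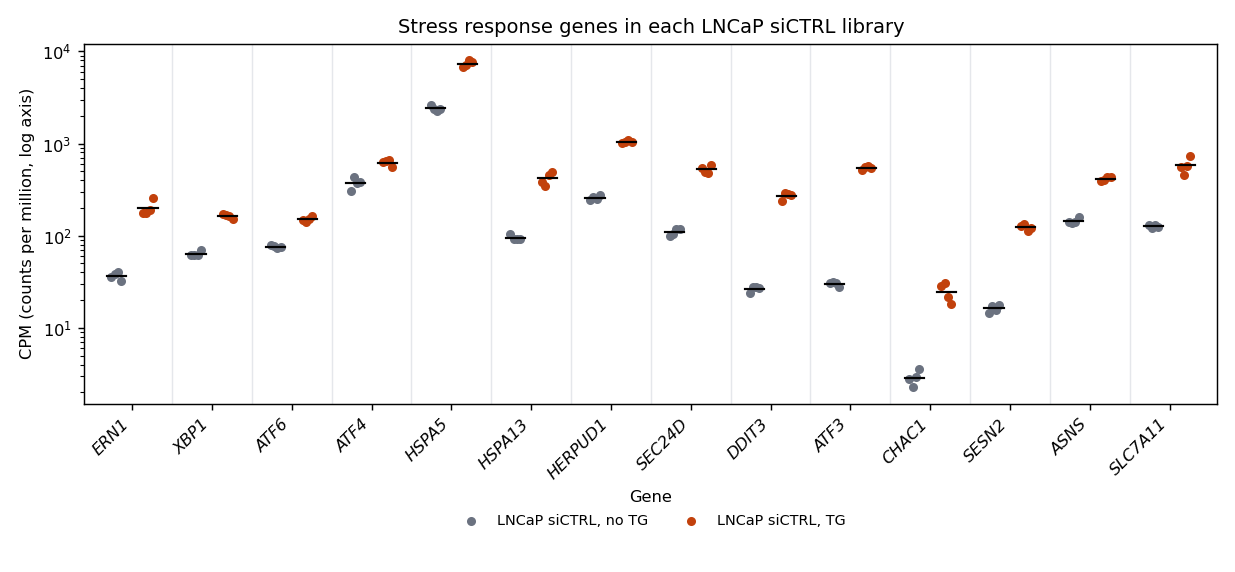
Level of 14 stress response genes in CPM (log axis) in each of the 4 LNCaP siCTRL libraries without TG (grey) and the 4 with TG (orange); black bars are group means. For every gene drawn the 4 TG libraries lie above the 4 controls, with ATF3, DDIT3 and CHAC1 the farthest apart.

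The disulfide enzymes were more divided, with 10 of 19 higher, 2 lower and a median of 0.36. AGR2, a disulfide isomerase of secretory epithelia often found in prostate cancer, went from 4.18, 3.3, 2.86 and 2.87 CPM to 17, 18.3, 16.2 and 18.4 CPM. Its log2 rise of 2.38 ± 0.153 exceeded that of ERO1B, the oxidase that recharges these isomerases (listed as ERO1LB; 1.66 ± 0.114). The abundant isomerase P4HB (0.10) and PDIA6 (0.17) did not pass the test.

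Of 25 genes of ER-associated degradation, which retrieves misfolded proteins for the proteasome, 18 rose and 2 fell (median 0.40). HERPUD1, a scaffold of the membrane ligase complex, went from 243, 261, 251 and 279 CPM to 1019, 1036, 1097 and 1048 CPM (log2 2.02 ± 0.0795). The mannosidase-like lectins EDEM1 (1.14) and EDEM2 (1.49), the ligase SYVN1 (1.26), its partner SEL1L (1.35) and the channel protein DERL3 (1.52) rose beside it. The proteasome itself showed no such shift: of 31 subunits 6 rose and 5 fell, with a median of -0.04, a sign that changed without TG library 4 (0.02) and when gene length and GC content were adjusted for (0.01). Among 7 ER-phagy receptors CCPG1 alone rose, from 106 ± 4.54 to 331 ± 44.3 CPM (1.64 ± 0.0981), and FAM134B (now RETREG1) fell by 0.37, a call that was lost without TG library 2 (adjusted p = 0.0583).

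IRE1 can also cut selected ER-bound transcripts. Of 6 transcripts tested that are known for this decay, 4 fell and 1 rose. BLOC1S1, the best known of them, went from 11.3, 21.3, 18.9 and 17 CPM to 9.11, 8.72, 8.36 and 5.64 CPM, a log2 change of -1.11 ± 0.201 (adjusted p = 0.000325). Its controls were scattered, with the first nearest the TG group but not within it. SPARC rose by 2.51 from a mean of 0.163 CPM, the opposite direction. It passed the count filter through the TG libraries alone, so the count of these transcripts is a description only.

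The next steps of secretion rose with the chaperones. Of 24 genes of the COPII and COPI coats and their cargo receptors, which carry proteins between ER and Golgi, 18 rose and 0 fell (median 0.68). SEC24D, the COPII cargo adaptor, went from 99.8, 104, 118 and 119 CPM to 542, 487, 484 and 592 CPM, a log2 rise of 2.26 ± 0.0973, while its paralogue SEC24B (0.10) did not pass the test. The COPI subunits COPA (0.99), COPB1 (1.07), COPB2 (1.17), COPG1 (1.03) and ARCN1 (1.22) rose, while COPE (0.18) and COPZ1 (-0.17) did not pass the test. Of 23 genes of translocation into the ER 13 rose and 3 fell (median 0.38), led by the signal recognition particle and its receptor: SRP19 (1.18), SRPRA (1.11) and SRP68 (1.04). The small subunits SRP9 (-0.24) and SRP14 (-0.48), which lie at the other end of that particle, and the signal peptidase subunit SEC11A (-0.22, adjusted p = 0.0498) were the 3 that fell. SRP9 lost its call without TG libraries 2 and 4 (adjusted p = 0.079) and in the fit of all 16 LNCaP libraries (log2 -0.29, adjusted p = 0.052). SEC11A lost it without control library 1 (adjusted p = 0.0895), 2 (0.0883) or 4 (0.0641) and without TG library 1 (0.138), 2 (0.0658) or 4 (0.115).

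Of 30 genes of N-glycosylation and the hexosamine route 10 were higher and 7 lower (median 0.06), close to the shares over all genes. GFPT1, the first enzyme of the hexosamine route that supplies the sugar donors, went from 307, 272, 282 and 283 CPM to 826, 753, 902 and 990 CPM (1.60 ± 0.0951). PGM3 in the same route rose by 1.17, whereas the next enzyme UAP1 fell by 0.51. Enzymes that build the lipid-linked sugar went both ways, with ALG8 at -1.19 and DOLK at -1.43 against ALG11 at 0.82.

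The genes of the integrated stress response rose widely: 19 of 23 ATF4 and CHOP effectors rose, 16 of them at least 2-fold, and 1 fell (median 1.83). FGF21, a member of this list, passed the count filter through the TG libraries alone, so this count is a description only. ATF3, a repressor and activator induced by ATF4 (chr1:212565407-212620777), was at 30.6, 31.4, 30.7 and 27.8 CPM in controls and at 511, 560, 565 and 537 CPM with TG. Its log2 rise was 4.17 ± 0.0868 (adjusted p = 1.8e-12), with little spread in either group. DDIT3 (CHOP, chr12:57516588-57520517) went from 23.8, 27.8, 27.9 and 26.9 CPM to 238, 293, 286 and 274 CPM, a rise of 3.36 ± 0.0975. CHAC1, which degrades glutathione, went from 2.8, 2.26, 2.94 and 3.54 CPM to 28.5, 30.8, 21.9 and 18 CPM (3.12 ± 0.2). SESN2, an inhibitor of mTORC1, went from 16.3 ± 1.38 to 124 ± 9.2 CPM (2.93 ± 0.096). The member that fell was NDRG1 (-1.08), which is also induced by androgen and by hypoxia, and ATF5 (-0.17) was among 3 that did not pass the test.

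Several effectors encode secreted factors. VEGFA, the angiogenic growth factor, went from 79.6, 66.6, 79.5 and 74.5 CPM to 565, 543, 486 and 535 CPM (2.83 ± 0.0907). ADM2, a peptide of the calcitonin family, went from 36.9, 37.7, 41.2 and 33.3 CPM to 188, 206, 177 and 208 CPM (2.38 ± 0.0923). The metabolic hormone FGF21 was at 0.051, 0, 0.238 and 0 CPM in controls and at 1.17, 2.19, 1.99 and 1.9 CPM with TG, and the activin subunit INHBE at 0, 0.055, 0 and 0 CPM against 1.09, 2.03, 1.34 and 2.1 CPM. FGF21 and INHBE thus appeared at low level in all 4 TG libraries. GDF15, a cytokine of cell stress, spread widely with TG (72.6, 82.2, 54.6 and 32.1 CPM) and overlapped its controls (25.3, 35.1, 44.3 and 27.8 CPM), with a rise of 0.87 ± 0.242 that passed the test. The calcium-regulating hormones split: STC2 rose from 99.1 ± 9.78 to 352 ± 10.1 CPM, and STC1 fell from 6.32 ± 0.913 to 1.65 ± 0.55 CPM. Of 28 secreted factors listed 16 could be tested, of which 12 were called higher and 2 lower; FGF21 and INHBE passed the filter through the TG libraries alone, so this count is a description only.

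In both lists of amino acid supply, synthesis and transport, more genes rose than fell. Of 19 synthesis genes 11 rose and 2 fell (median 0.81). ASNS, asparagine synthetase, went from 140, 137, 142 and 159 CPM to 389, 407, 432 and 431 CPM (1.52 ± 0.0809). Within serine synthesis PSAT1 (1.37) and PSPH (1.35) rose, but PHGDH, the first enzyme, did not pass the test (365 ± 46.6 against 418 ± 46.4 CPM; log2 0.20, adjusted p = 0.133). Of 18 transporters 10 rose and 5 fell (median 0.68). SLC7A11, which imports cystine, went from 131, 122, 132 and 124 CPM to 560, 456, 567 and 738 CPM (2.19 ± 0.124). The subunits of the leucine transporter rose together, SLC7A5 by 2.06 and SLC3A2 by 1.96, while the taurine transporter SLC6A6 fell by 1.87.

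Of 19 cytosolic aminoacyl-tRNA synthetases 11 rose and 3 fell (median 0.44), and of 17 mitochondrial ones 1 rose and 8 fell (median -0.30). GARS1 (listed as GARS), which serves both compartments, was at 279, 263, 251 and 310 CPM in controls and 913, 889, 902 and 841 CPM with TG (1.68 ± 0.086). MARS1, the cytosolic methionine enzyme, rose by 1.11, whereas its mitochondrial counterpart MARS2 went from 23.6, 20, 25.2 and 26.6 CPM to 9.02, 7.62, 8.59 and 7.84 CPM (-1.53 ± 0.125). The difference between the 2 lists was not tested.

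Among 24 genes of calcium handling 9 rose and 5 fell (median 0.13). ATP2A2, the SERCA pump that TG blocks in most tissues, went from 686, 648, 698 and 766 CPM to 960, 870, 971 and 1155 CPM, a log2 rise of 0.50 ± 0.0963 (adjusted p = 0.000547) with no overlap. ATP2B1, a calcium pump of the plasma membrane, rose much more, from 200, 168, 159 and 194 CPM to 827, 716, 849 and 931 CPM (2.20 ± 0.105). ITPR1, an ER calcium release channel, rose by 0.63, with no overlap. The store sensors STIM1 (-0.16) and STIM2 (-0.18) did not pass the test.

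**Figure D2:**
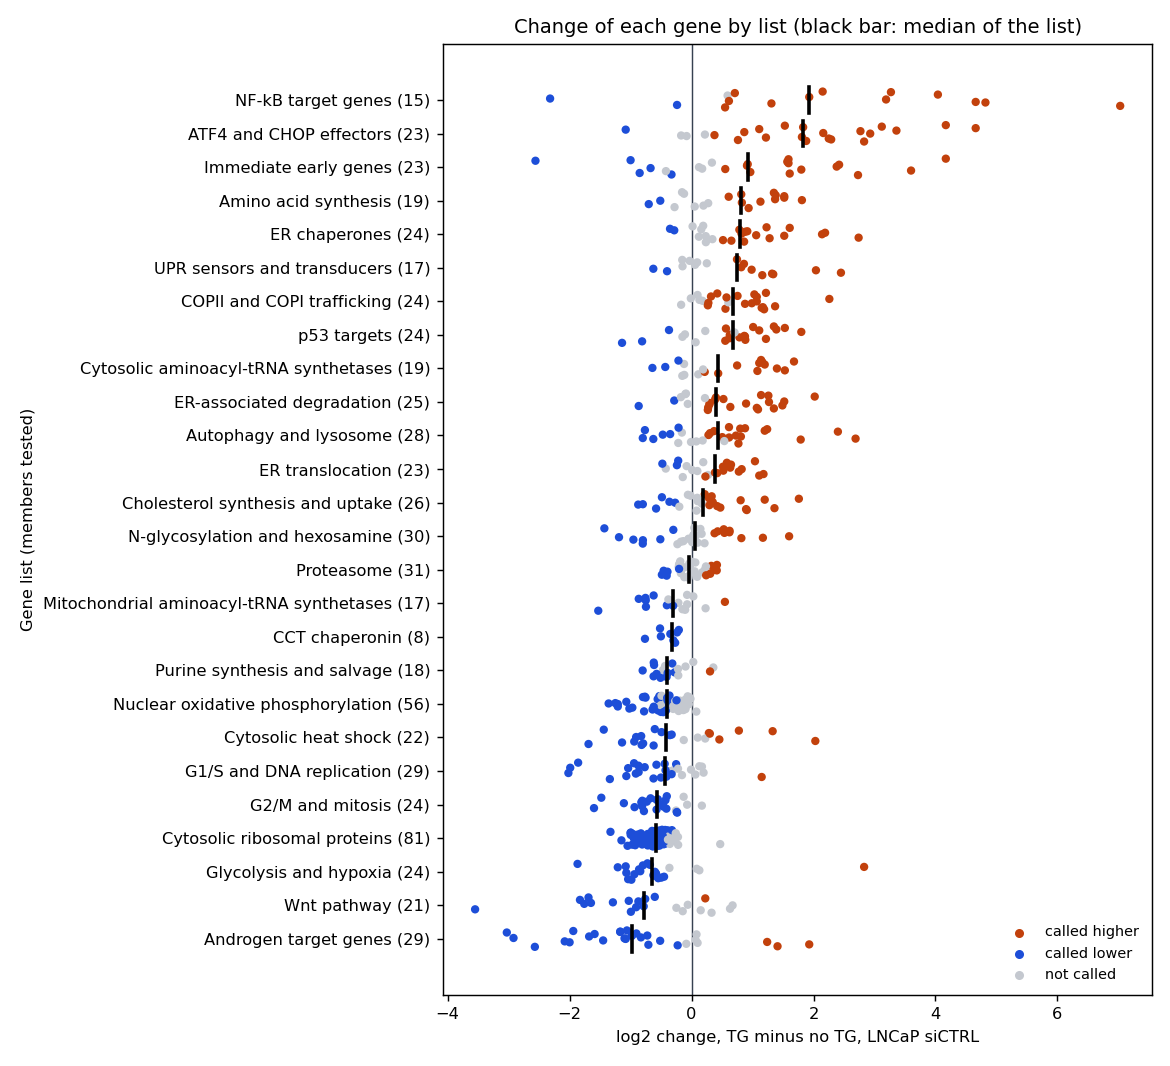
Log2 change with TG (TG minus no TG, LNCaP siCTRL) of each tested gene in 26 lists, ordered from mostly higher to mostly lower; orange points were called higher, blue lower and grey not called, and black bars are list medians. The ATF4 and CHOP effectors have a median of 1.83 and the androgen target genes one of -0.98, with the median of all genes at 0.01. The NF-kB, ATF4 and CHOP, and immediate early lists hold genes that passed the count filter through the TG libraries alone.

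Genes of cell death moved in both directions. Among 17 of the BCL2 family 6 rose and 6 fell (median -0.15), near the shares over all genes (29.8% and 26.3%). The pro-apoptotic PMAIP1 (NOXA) rose from 18.5, 15.9, 16.7 and 13.7 CPM to 52.6, 57.7, 65.8 and 63.9 CPM (1.88 ± 0.112), and the pro-apoptotic BMF fell from 26.3, 25.1, 26.7 and 21 CPM to 5.1, 5.43, 5.49 and 4.8 CPM (-2.25 ± 0.126). BCL2, which protects cells, fell by 0.79 from a mean of 5.12 CPM, and MCL1 did not pass the test (0.03). The receptors of the death ligand TRAIL were split: TNFRSF10B (DR5), a CHOP target, went from 155, 136, 152 and 130 CPM to 334, 325, 330 and 350 CPM (1.22 ± 0.0818). TNFRSF10D, a decoy receptor that lacks a working death domain, went the other way, from 61.8, 57.2, 53 and 45 CPM to 10.8, 9.48, 10.6 and 13 CPM (-2.31 ± 0.127). Of 22 genes of tumour necrosis factor receptors and death signalling 13 rose and 3 fell (median 0.43), with the receptor FAS (1.80) and the inhibitor BIRC3 (2.15) among those that rose. TNFRSF9, also in this list, passed the count filter through the TG libraries alone, so this count is a description only.

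Of 23 NF-kB target genes listed 15 could be tested, of which 12 were called higher and 2 lower. Some passed the count filter through the TG libraries alone, CXCL8 and CCL2 among them, so this count is a description only. TNFAIP3 (A20), a feedback inhibitor of the pathway, went from 3.62, 4.29, 3.49 and 6.33 CPM to 49.6, 36.5, 39.8 and 43 CPM (3.27 ± 0.172). RELB, a subunit of the alternative pathway, went from 0.51, 0.385, 0.318 and 0.337 CPM to 7.35, 7.35, 7.42 and 4.55 CPM (4.04 ± 0.283). The neutrophil chemokine CXCL8 (listed as IL8) was at 0, 0.055, 0 and 0 CPM in controls and at 3.09, 2.47, 3.74 and 3.1 CPM with TG. The monocyte chemokine CCL2 rose in the same way, to 4.26, 1.86, 2.16 and 2.25 CPM from 0.22 CPM or less. NFKBIA, the classic early target, rose only by 0.55 ± 0.0977, and TNFAIP2 fell by 2.32. The 8 genes too low to test included IL6, TNF and CXCL1.

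Of 23 immediate early genes 14 rose and 5 fell (median 0.92). FOS, a member of this list, passed the count filter through the TG libraries alone, so this count is a description only. FOS went from 0.204, 0.275, 0.318 and 0.506 CPM to 3.34, 3.45, 3.86 and 4.7 CPM (3.60 ± 0.316), and JUN, its partner in AP-1, from 30.1, 30.9, 27.5 and 28.7 CPM to 84.3, 89.4, 90.2 and 84.7 CPM (1.57 ± 0.0798). The growth factor AREG, an EGF receptor ligand, was at 0.055 CPM or less in controls and at 1.42, 1.64, 1.93 and 1.7 CPM with TG. MYC stood against this group, with 147, 160, 172 and 147 CPM in controls and 27.1, 29.1, 24.3 and 25.4 CPM with TG (-2.56 ± 0.0926). EGR1 was low in both groups and overlapped between them, and its fall of 1.00 lost its call without control library 2 (adjusted p = 0.0562), without control library 3 (0.0549) and without TG library 3 (0.0731).

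Luminal transcription factors moved in both directions. HOXB13, a homeobox factor of the prostate, went from 200, 236, 235 and 216 CPM to 67.8, 74.2, 65.9 and 54.8 CPM (log2 -1.76 ± 0.101), and each TG library was lower than any control. The pioneer factor FOXA1 fell far less, by 0.41 ± 0.115, with overlapping groups, and lost its call without TG libraries 2 and 4 (adjusted p = 0.0935). GATA2 (-1.46) and SPDEF (-1.28) fell too, while the coactivator NCOA3 (0.93) and KLF5 (1.12) rose. In this list 5 of 17 factors rose, 1 of them at least 2-fold, and 7 fell, 5 of them at least 2-fold (median -0.03). Over all genes 29.8% rose, 10.1% at least 2-fold, and 26.3% fell, 6.2% at least 2-fold.

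Of 29 androgen target genes 22 fell, 14 of them at least 2-fold, and 3 rose (median -0.98). KLK3 (prostate-specific antigen, chr19:50854915-50860764) was at 1337, 1632, 1461 and 1240 CPM in controls and at 348, 363, 349 and 280 CPM with TG (-2.08 ± 0.11). KLK2, its neighbour and activator, went from 111 ± 10.2 to 29.1 ± 7.38 CPM, and PMEPA1, an inhibitor of TGF-β signalling, from 63.8 ± 4.92 to 10.8 ± 2.82 CPM. CAMKK2, an AMPK kinase under androgen control, went from 170, 162, 162 and 153 CPM to 38.4, 39.5, 42.5 and 41.5 CPM, with no overlap (adjusted p = 2.74e-10). The targets that rose were EAF2 (1.41), ZBTB10 (1.24) and SNAI2 (1.93). ACSL3 (0.08), ELL2 (0.07) and ODC1 (0.10) did not pass the test.

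Not every luminal marker fell. Of the 14 fixed luminal markers 8 fell and 4 rose, and their summed level was 7363 to 7706 CPM in controls and 4771 to 5285 CPM with TG. The simple epithelial keratin KRT18 rose from 153, 214, 187 and 167 CPM to 312, 335, 330 and 296 CPM (0.82 ± 0.102), and the acid phosphatase gene ACP3 by 0.82. FOLH1 (PSMA, -0.04) and STEAP2 (-0.09) did not pass the test. The basal and mesenchymal list had 6 genes tested, of which 2 rose, 1 fell and 3 were not called (median -0.04). ZEB1 (2.04) and SNAI2 (1.93) rose from means of 1 CPM or less. ZEB1 was at 0.153, 0.055, 0.635 and 0 CPM in controls and passed the count filter largely through the TG libraries. The count of this list is therefore a description only. ZEB1 had overlapping groups and no call without control library 1 (adjusted p = 0.0594), control library 2 (0.0677) or TG library 4 (0.0633).

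**Figure D3:**
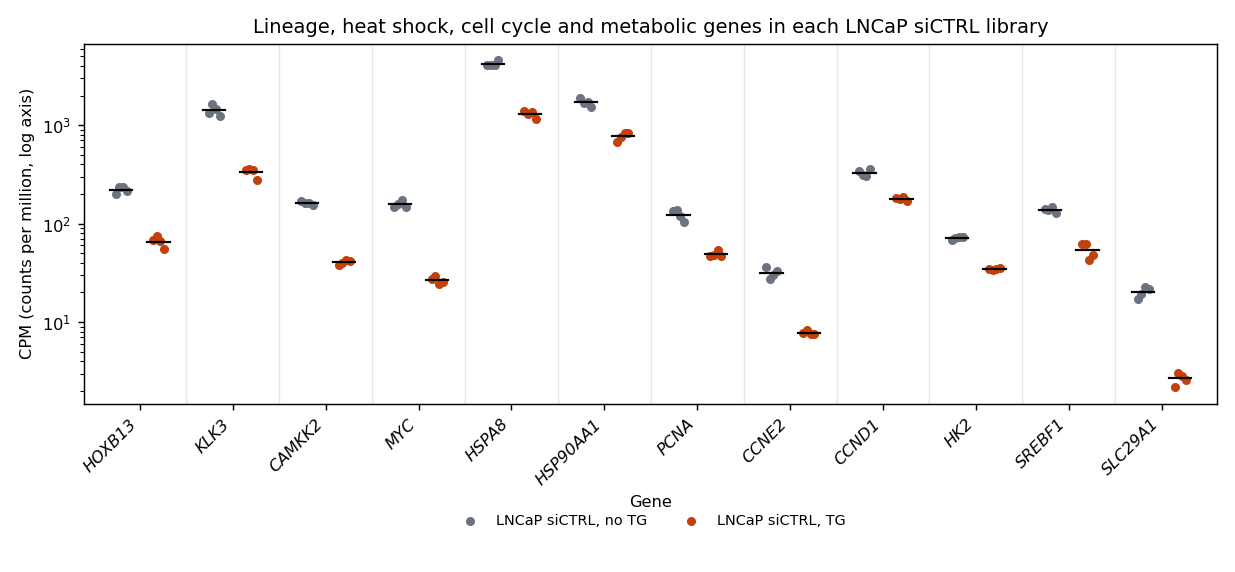
Level of 12 lineage, heat shock, cell cycle and metabolic genes in CPM (log axis) in each of the 4 LNCaP siCTRL libraries without TG (grey) and the 4 with TG (orange); black bars are group means. For every gene drawn the 4 TG libraries lie below the 4 controls, with SLC29A1 and MYC the farthest apart.

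Of 22 cytosolic heat shock genes 13 fell and 6 rose (median -0.42), and all 8 subunits of the CCT chaperonin, which folds actin and tubulin, fell (median -0.32). HSPA8, the constitutive HSP70, whose promoter is shown above, was at 4087, 4133, 4067 and 4560 CPM in controls and at 1392, 1303, 1368 and 1159 CPM with TG (-1.69 ± 0.0883). HSP90AA1 went from 1868, 1679, 1732 and 1529 CPM to 674, 761, 836 and 827 CPM (-1.14 ± 0.0947). The J-domain cochaperones split, with DNAJB1 (-0.91) and DNAJA1 (-0.79) lower and DNAJB4 (2.03) higher. HSPA8 and HSPA5 encode members of the same protein family in different compartments, and their transcripts changed in opposite directions in every TG library. In mitochondria HSPA9, the HSP70 of that compartment, rose by 0.84, HSPE1 fell by 1.39 and HSPD1 did not pass the test (-0.11).

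Cell cycle genes fell broadly but by modest amounts. Of 29 genes of G1/S and DNA replication 19 fell and 1 rose (median -0.44), and of 24 genes of G2/M and mitosis 20 fell and 0 rose (median -0.56). CCNE2, a cyclin that starts S phase, went from 36.2, 27.6, 30.4 and 33.1 CPM to 7.77, 8.39, 7.6 and 7.54 CPM (-2.02 ± 0.118). PCNA, the sliding clamp of DNA replication, went from 135, 136, 119 and 103 CPM to 46.4, 48.2, 53.9 and 46.7 CPM (-1.34 ± 0.101), and the proliferation marker MKI67 from 225 ± 25.6 to 131 ± 24 CPM. The origin licensing factor CDC6 was the gene that rose (1.15), and E2F1 was level within its spread (29.9 ± 4.6 against 31.4 ± 8.78 CPM). CCND1 (cyclin D1) fell by 0.88. The kinase inhibitors CDKN1A (p21, 1.53) and CDKN1B (p27, 1.31) rose, as did CDKN2B (p15), from 1.94, 1.71, 1.98 and 1.6 CPM to 12.7, 13.2, 11.7 and 11.2 CPM (2.75 ± 0.164).

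CDKN1A is also a p53 target, and LNCaP is known for wild-type p53. Of 24 p53 targets 15 rose and 3 fell (median 0.68). MDM2, the p53 ligase and target, went from 261, 231, 242 and 232 CPM to 599, 520, 653 and 763 CPM (1.39 ± 0.109). AEN (1.35) and POLH (1.01) rose, while SESN1 (-0.81), ZMAT3 (-0.37) and TP53INP1 (-1.14) fell, and BAX (-0.15) did not pass the test. ZMAT3 was not called without TG libraries 2 and 4 (adjusted p = 0.0611) or in the fit of the 16 siCTRL libraries of both lines (0.12). GDF15, BBC3, FAS and TNFRSF10B stand in the p53 list and in a stress or death list, so the counts share members.

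Genes of energy metabolism and of the ribosome were lower. Of 24 genes of glycolysis and hypoxia 20 fell, and VEGFA alone rose (median -0.65). HK2, the first enzyme of glycolysis, went from 68.7, 71, 72.9 and 72.6 CPM to 34.3, 33.6, 34.9 and 35.7 CPM (-1.04 ± 0.0757), and the glucose transporter SLC2A1 from 20.6 ± 1.89 to 10.4 ± 0.474 CPM. LDHA (-1.07) and PFKFB3 (-1.87) fell as well. Of 56 nuclear genes of oxidative phosphorylation 32 fell and 0 rose (median -0.40). Of 81 cytosolic ribosomal protein genes 68 fell and 0 rose (median -0.59), and their summed mean level dropped from 65051 to 42142 CPM. Ribosomal protein genes have many near-identical pseudogenes, so single members are uncertain. Within a library's total, a fall of such abundant genes raises the share of all others. The CPM given here are scaled with TMM factors (0.977 to 1.04), and the direction of this list was the same under each scaling tried.

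Of 26 genes of cholesterol synthesis and uptake 13 rose and 6 fell (median 0.19), and of 17 of fatty acid synthesis 2 rose and 9 fell (median -0.22). The mevalonate enzyme MVD (1.76) and the sterol carrier STARD4 (1.36) rose, while SQLE (-0.80) and INSIG1 (-0.49) fell. SREBF1, the factor that drives fatty acid synthesis, went from 140, 139, 147 and 129 CPM to 62.3, 62.4, 43 and 47.7 CPM (-1.37 ± 0.117). FASN fell by 0.82 ± 0.189, with control library 4 (191 CPM) inside the range of the TG libraries (142 to 223 CPM).

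Nucleotide genes are of interest here because the series targets MOCOS, the sulfurase that activates the molybdenum cofactor of xanthine dehydrogenase. MOCOS (chr18:36187497-36272157) was at 22.8, 22.3, 22.3 and 21.6 CPM in controls and at 86.7, 88.3, 96 and 95.5 CPM with TG (2.04 ± 0.081). XDH, which oxidises hypoxanthine to uric acid (chr2:31334321-31414742), went from 4.54, 3.8, 4.84 and 3.88 CPM to 29.8, 30.3, 28.5 and 31.9 CPM (2.82 ± 0.123). The libraries of each group were close together for both genes. The step before XDH went the other way: PNP, which releases the bases, fell from 61.6, 71.1, 67.9 and 63.2 CPM to 24.1, 27.9, 21.9 and 18.5 CPM (-1.51 ± 0.117). SUOX, a molybdenum enzyme that does not use the MOCOS product, fell by 1.74 ± 0.118. The list of purine breakdown and the cofactor had 5 of 18 genes higher and 4 lower (median 0.06).

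Of 18 genes of purine synthesis and salvage 10 fell and 1 rose (median -0.40), and of 16 of pyrimidine metabolism 9 fell and 0 rose (median -0.32). PAICS went from 964 ± 93.8 to 627 ± 24.2 CPM, and the salvage enzyme HPRT1 from 41.4 ± 1.15 to 27.1 ± 1.82 CPM. PPAT, the committed step of purine synthesis, did not pass the test (-0.10). SLC29A1, the equilibrative nucleoside transporter ENT1, fell most, from 17.1, 19.3, 22.9 and 21.9 CPM to 2.17, 3.07, 2.86 and 2.6 CPM (-2.90 ± 0.158).

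Of 28 genes of autophagy and the lysosome 16 rose and 6 fell (median 0.44). MAP1LC3B, the autophagosome marker LC3B, went from 27.2, 26.9, 26.7 and 26.8 CPM to 122, 148, 153 and 146 CPM (2.40 ± 0.091), and WIPI1, which acts at autophagosome formation, from 7.44, 8.03, 7.38 and 9.87 CPM to 49.2, 51, 54.4 and 55.1 CPM (2.69 ± 0.112). The receptors OPTN (1.79), CALCOCO2 (0.80) and SQSTM1 (0.77) rose, whereas LAMP2 (-0.80), CTSB (-0.63) and GLA (-0.77) of the lysosome fell.

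Of 38 Wnt genes listed 21 could be tested, of which 13 fell and 1 rose. Of 15 Notch genes tested 5 fell, 4 of them at least 2-fold, and 2 rose (median -0.23). Over all genes 26.3% fell, 6.2% at least 2-fold, and 29.8% rose. WNT7B was at 11.1, 15.6, 12.9 and 13.2 CPM in controls and at 1.84, 1.04, 1.11 and 0.699 CPM with TG. The coreceptor LRP5 fell by 1.83, and the feedback ligases RNF43 (-1.69) and ZNRF3 (-1.65), which remove Wnt receptors, fell with it. NRARP, a feedback target of Notch, went from 13.4, 15.6, 13 and 15.5 CPM to 2.26, 1.7, 1.58 and 1.5 CPM (-3.05 ± 0.174).

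The LNCaP response was then compared with that of siCTRL C4-2B cells. The difference (LNCaP log2 change minus C4-2B log2 change, edgeR's quasi-likelihood interaction test) was called for 225 of 14007 genes: 96 with a higher LNCaP change (0.685%) and 129 with a lower one (0.921%). Of these, 101 were called in both lines in the same direction, 75 of them with the larger change in LNCaP. Another 23 were called in opposite directions, 64 in LNCaP alone and 32 in C4-2B alone. A gene too low to test in a line, such as ICAM1 or CHST2 in LNCaP, counts as not called there. With the size factors of DESeq2, 53.7% of the calls were on the higher side, against 42.7% here. Without C4-2B TG library 3 the higher set grew to 165. The lower set shrank to between 52 and 82 on leaving out any of LNCaP control library 1, 2, 3 or 4, LNCaP TG library 1, 2 or 3, C4-2B control library 3 or 4, or C4-2B TG library 1 or 4. Except for CD274, the genes described next kept their call with each of the 16 libraries left out in turn.

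CCDC80, a matrix protein, was at 0.408, 0.66, 0.397 and 0.337 CPM in LNCaP controls and at 5.51, 5.48, 6.78 and 8.79 CPM with TG. In C4-2B it was at 13.6, 18, 13.5 and 11.1 CPM without TG and at 10.9, 12.1, 12.9 and 12.1 CPM with it. The difference of 4.02 ± 0.31 (adjusted p = 1.19e-06) thus came from a gene that started low in LNCaP and high in C4-2B. SLC7A5, the leucine transporter subunit, had the same pattern, with 7.09 ± 0.3 to 29.5 ± 1.88 CPM in LNCaP and 156 to 196 CPM (means) in C4-2B, and a difference of 1.68 ± 0.182 (adjusted p = 6.14e-05). HMOX1, haem oxygenase, rose from 1.85 ± 0.389 to 5.65 ± 1.61 CPM in LNCaP and went from a mean of 4.13 to 3.99 CPM in C4-2B (difference 1.63, adjusted p = 0.0115). TMTC1, an ER mannosyltransferase, rose from 0.201 ± 0.144 to 2.36 ± 0.2 CPM in LNCaP and from 5.06 to 7.19 CPM in C4-2B (difference 3.01). For CCDC80, SLC7A5 and TMTC1 every LNCaP library with TG lay between the LNCaP controls and the C4-2B libraries, whereas for HMOX1 3 of the 4 (6.6, 6.74 and 5.96 CPM) lay above every C4-2B library.

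Other genes moved the same way in both lines but farther in LNCaP. WIPI1 rose in both lines, by 2.69 in LNCaP and 1.64 in C4-2B (difference 1.01 ± 0.169, adjusted p = 0.00356), and CDKN2B by 2.75 and 1.37 (difference 1.34, adjusted p = 0.0204). BMF fell by 2.25 and 1.32 (difference -0.97 ± 0.16, adjusted p = 0.00321), and the androgen target PMEPA1 by 2.57 and 1.52 (difference -1.08 ± 0.207, adjusted p = 0.0103). Without LNCaP TG libraries 2 and 4 the differences of CDKN2B (adjusted p = 0.0771) and BMF (0.0506) were not called. STC1 and RANBP3L differed in another way. STC1 fell by 1.96 in LNCaP, whereas its level in C4-2B went from a mean of 5.39 to 6.55 CPM, log2 0.27 with an adjusted p of 0.377 (difference -2.26, adjusted p = 0.00259). RANBP3L rose by 1.92 in C4-2B from a mean of 2.28 CPM, and in LNCaP it went from 13.9 ± 1.95 to 11.4 ± 1.35 CPM, which did not pass the test (difference -2.24, adjusted p = 6.14e-05). CD274, the immune checkpoint ligand PD-L1, fell in LNCaP from 20.9, 16.3, 15.6 and 18.4 CPM to 4.18, 3.56, 4.03 and 4 CPM (-2.18 ± 0.144). In C4-2B it was near 1 CPM in both groups, and its line difference of -1.93 (adjusted p = 0.0217) was lost on leaving out any of 6 libraries, with an adjusted p of 0.0519 (LNCaP TG 3), 0.0544 (LNCaP TG 2), 0.0614 (LNCaP control 1), 0.056 (C4-2B TG 1), 0.0818 (C4-2B TG 4) or 0.0628 (C4-2B control 3).

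**Figure D4:**
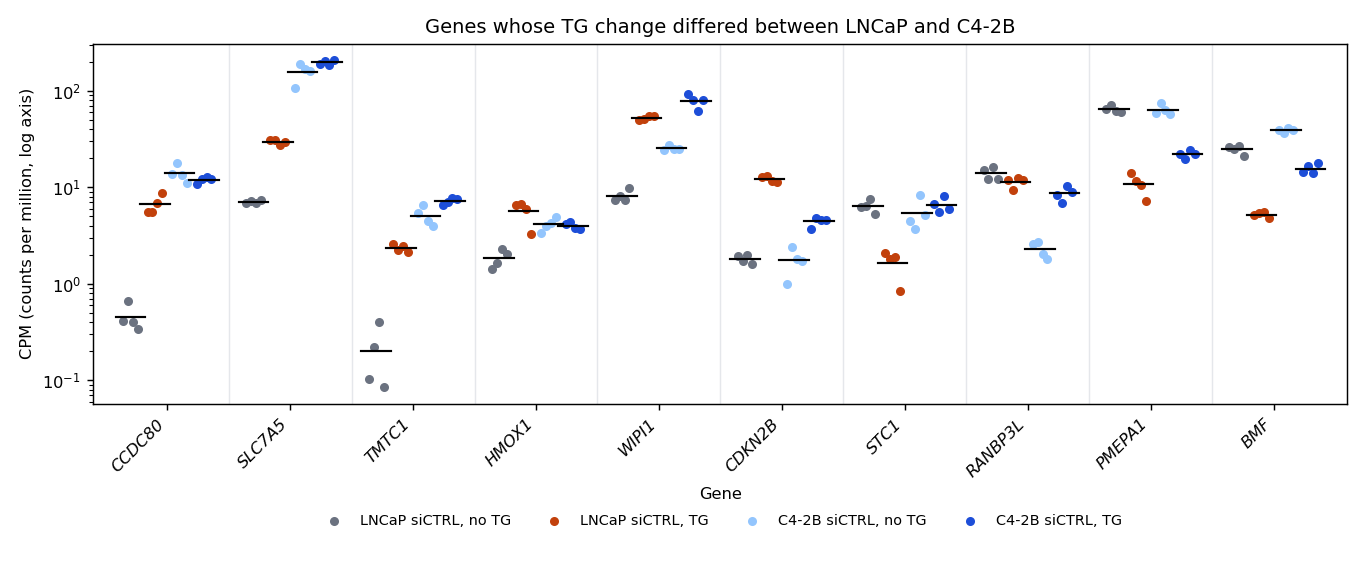
Level of 10 genes whose TG change differed between the lines, in CPM (log axis), in each siCTRL library of LNCaP (grey without TG, orange with TG) and C4-2B (pale blue without TG, dark blue with TG); black bars are means of 4. CCDC80, SLC7A5 and TMTC1 start lower in LNCaP than in C4-2B, whereas WIPI1, CDKN2B, PMEPA1 and BMF move the same way in both lines and farther in LNCaP.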

How the data were processed

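The 8 LNCaP siCTRL libraries, 4 with TG and 4 without, were compared, with the 8 siCTRL libraries of C4-2B used for the difference between lines. The authors deposited 1 table of estimated counts per gene, made with Salmon 1.5.2 per the submitters' processing notes and length-scaled per the name of the table, for 32 libraries. The same notes name the build hg38, STAR 2.6.1d, and for reads FastQC 0.11.9, cutadapt 3.4 and Trim Galore 0.6.7. The annotation is not given in the sources used here. Because length-scaled estimates share reads between similar genes, single members of families with close copies are uncertain.

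Counts were rounded to whole numbers, filtered with filterByExpr and scaled by TMM, and tested with edgeR 4.0.16 (quasi-likelihood F test, R 4.3.3). Adjusted p is Benjamini-Hochberg over all genes tested, called under 0.05. CPM uses the TMM factors of the 8 libraries of a line, and SE is that of the log2 change. Libraries held 11681393 to 20251598 counts in LNCaP. On simulated data the LNCaP fit recovered 44.8% of 1.5-fold, 74.6% of 2-fold and 97% of 4-fold changes among 13238 genes. The line difference recovered 4.48%, 56.7% and 83.3% among 14007. Control and TG libraries of the same replicate number correlated at -0.112 to 0.271 in their deviations from the group mean. Those of different numbers correlated at -0.213 to 0.152. The highest value was that of control and TG library 2, which both leaned the same way on GC content (0.26 and 0.444). These values do not settle whether the numbers pair the libraries, and the main fits used no pairing. P-values set a change, or a difference between lines, against the spread between these libraries. Alternatives used DESeq2 1.42.0, limma 3.58.1 and left-out libraries.

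Genes named are the 10 greatest rises and falls called, at 5 CPM or more with no overlap, key genes of 52 lists, the 6 greatest line differences each way, and others chosen after their values were seen. Members and lists were chosen with earlier results of these data known. Promoters and gene coordinates are from RefSeq (GRCh38.p14). Some genes that this rule names are not reported here.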

Additional observations from a re-analysis of the deposited data

Results flagged for a closer look

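Over 218 named genes, 436 groups of 4 libraries were examined for 1 library standing apart from the other 3, and 28 groups had one. Chance flags about 1 in 20 groups. In controls the high library was at 0.556 CPM for KRT80, 70.4 for XBP1, 443 for ODC1, 4560 for HSPA8, 104 for HSPA13, 178 for ACP3 (listed as ACPP), 48.1 for ALG8, 21.2 for GLA, 956 for LDHA and 1.94 for SNHG12. It was at 0.055 CPM for CXCL8 (listed as IL8), INHBE and AREG, whose other 3 controls were at 0. The low control was at 14.7 CPM for EDEM2. With TG the high library was at 259 CPM for ERN1, 487 for PHGDH, 4.26 for CCL2, 1.4 for ZEB1, 2.08 for ISG15 and 21.7 for ISG20. The low TG library was at 189 CPM for MCL1, 1.1 for BBC3, 214 for CDKN1A, 4.55 for RELB, 29.4 for ATF5, 87 for BIRC3, 847 for P4HB and 99.8 for STARD4.

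For 24 of the named genes the TG change differed between LNCaP and C4-2B by the interaction test of edgeR. Besides CCDC80 (4.02), SLC7A5 (1.68), TMTC1 (3.01), HMOX1 (1.63), WIPI1 (1.01), CDKN2B (1.34), STC1 (-2.26), RANBP3L (-2.24), PMEPA1 (-1.08), BMF (-0.97) and CD274 (-1.93), described above, PCAT1 fell more in LNCaP (difference -1.58, adjusted p = 0.00114). DNAJB4, a cochaperone of HSP70, rose by 2.03 in LNCaP and 0.49 in C4-2B (difference 1.51, adjusted p = 0.000154). SYT4, a synaptotagmin, fell by 1.09 in LNCaP and 0.40 in C4-2B (difference -0.72, adjusted p = 0.00569). PCAT1, DNAJB4 and SYT4 kept the call with each of the 16 libraries left out in turn. The other 10 differences each lost the call on leaving out at least 1 library: JUN (0.90), ATP2B1 (0.72), POLH (0.75), MOCOS (0.47), SAT1 (0.64), HOXB13 (-0.75), CCNE2 (-0.84), HMGN2P46 (-1.33), SESN1 (-0.81) and SLC6A6 (-0.83).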

How the results depend on the processing

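Leaving out 1 library at a time gave 3585 to 3922 genes higher with TG, 3181 to 3536 lower, 1310 to 1392 at least 2-fold higher and 843 to 914 at least 2-fold lower. Asking for a change beyond 1.5-fold gave 1579 higher and 1049 lower. With the replicate number as a block, though it is not known whether the numbers pair the libraries, 3925 genes were higher and 3527 lower. Of single genes, SPCS3 was not called in the main fit (log2 0.01, adjusted p = 0.933). It was called lower under length and GC offsets (log2 -0.16, adjusted p = 0.0372). Those offsets also brought HSPD1, PPAT, P4HB, STEAP2, CALR and RANBP3L past the threshold in LNCaP.

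The line difference moved more. Leaving out 1 library gave 64 to 165 genes above and 52 to 179 below. DESeq2's Wald test gave 221 above. Length and GC offsets gave 293 above and 361 below, and leaving out LNCaP TG libraries 2 and 4 gave 48 and 30. The replicate block gave 27 and 18, and under it HMOX1 (adjusted p = 0.0907), CDKN2B (0.0758) and BMF (0.0518) were no longer called. The cause was not tested. On simulated data a 1.5-fold line difference was recovered for 4.48% of genes, so an uncalled difference of that size is not detectable at this depth and n.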

Other observations

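Transcripts that host small nucleolar RNAs split: of 19 tested 9 rose and 5 fell (median 0.48). SNHG17 (2.01), SNHG12 (1.92), SNHG5 (1.57), ZFAS1 (1.06) and GAS5 (0.70) rose, while the more abundant SNHG16 fell from a mean of 170 to 59.4 CPM (-1.52) and DANCR from 73.5 to 26.1 CPM (-1.49). Of 28 nucleolar genes of ribosome assembly 18 fell and 5 rose (median -0.37), with BYSL at -1.15 and POLR1B, a subunit of RNA polymerase I, at -1.04, against GNL3 at 0.96. Of 76 mitochondrial ribosomal protein genes 21 fell and 8 rose (median -0.17).

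Antioxidant genes known as NRF2 targets were divided, with 6 of 18 higher and 7 lower (median -0.15), against 29.8% and 26.3% over all genes. PRDX1, a peroxiredoxin, fell from a mean of 368 to 74.8 CPM (-2.30) and thioredoxin TXN from 127 to 62 CPM (-1.03), while GCLM, a subunit of the first enzyme of glutathione synthesis, rose from 47.5 to 84.7 CPM (0.83). Of 12 polyamine genes 3 rose and 5 fell: SAT1, which acetylates polyamines for export, rose from 59 to 197 CPM (1.74), and AMD1, which supplies their synthesis, fell from 1169 to 748 CPM (-0.64). Of 22 interferon response genes 8 rose and 4 fell (median 0.10): ISG20 (2.05) and MX1 (1.35) rose, whereas ISG15 (0.04) and IFIT1 (-0.11) did not pass the test.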
